A study of Mus musculus with 8 samples.

Results

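The 51 genes described here encode the kinases, cyclins, kinetochore proteins and motors that carry a cell through mitosis. They were listed by name from these functions, and all 51 of them were among the 16302 genes measured and reached a mean of 10 or more normalized reads (reads scaled by a size factor for each library). RNA was sequenced from cells sorted at embryonic day 9.5 out of tissue dissected from the second heart field (SHF) of the mouse embryo, a pool of progenitors that adds cells to both ends of the heart tube. GFP+ cells (3 libraries) came from Hoxb1GFP embryos, in which the green reporter follows Hoxb1, a gene of the posterior SHF. The study's methods list the Hoxb1GFP allele under the name Hoxb1-, the symbol of its Hoxb1 mutants. They do not state how many copies the sorted embryos carried. Tomato+ cells (3 libraries) came from Mef2c-Cre;RosatdT embryos, in which Cre under a Mef2c enhancer of the anterior heart field labels the cells and all their descendants with tdTomato. GFP- and Tomato- cells (1 library each) were the cells of each line that lacked the reporter. Cells of several embryos of 1 somite stage were pooled before sorting, and the groups came from different mouse lines, so the line and the cell population cannot be told apart.

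Entry into mitosis is set by the kinase CDK1 bound to cyclin A or B, which is held off by inhibitory phosphates until CDC25 phosphatases remove them. Aurora and Polo-like kinases then build the spindle, kinetochores attach chromosomes to it, and the checkpoint proteins MAD2, BUB1, BUBR1, BUB3 and TTK keep the anaphase-promoting complex (APC/C) inactive until every chromosome is attached. The APC/C with CDC20 destroys securin and cyclin B, separase cuts cohesin, and the central spindle and a contractile ring divide the cell. The genes of this programme are transcribed late in the cell cycle, and many are known to be switched by the MuvB complex, with B-MYB and FOXM1 as activators or p107 and p130 as repressors, through a short promoter element called CHR (cell cycle genes homology region) and by NF-Y through CCAAT boxes. In the early embryo the SHF is known as a proliferating epithelium, whose cells slow their division as they enter the heart tube.

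The 8 libraries held 22668185 to 41597870 reads, of which 12765045 to 27249149 fell outside mitochondrial genes. Replicates 1 and 3 were nearly alike in both groups, with a chi-square per degree of freedom of 2.35 in GFP+ and 2.38 in Tomato+ cells against 72.4 to 93.0 for pairs with replicate 2. Counts are therefore also given after averaging replicates 1 and 3, so that each group has 2 values. The study names the libraries of each population biological replicates. Separate pools of embryos are not stated in the labels, so a p here speaks of the scatter among these libraries alone, and that scatter may be technical. Hoxb1 stood at 843, 719.9 and 986 normalized reads in GFP+ cells and at 301, 415 and 292 in Tomato+ cells, with no overlap, and Mef2c at 1951, 2129 and 1892 in GFP+ and 1451, 1469.5 and 1412 in Tomato+ cells, so the gene whose enhancer marks Tomato+ cells was not higher in them. Markers of other cells differed between the groups. For comparison, 19.7% of all genes tested were called higher and 20% lower in GFP+ than in Tomato+ cells. The 19 erythroid markers summed to 1068 to 1542 in GFP+ and 119600 to 143769 in Tomato+ cells (18 of 19 called lower in GFP+), and to 285068 in GFP- and 279794 in Tomato- cells. Hbb-bs and Hbb-bt had 1 read each over the 3 GFP+ libraries. The 10 neuronal markers summed to 4099 to 4435 in GFP+ and 25277 to 25499 in Tomato+ cells (8 called lower), and the 13 cardiomyocyte markers to 31032 to 36009 in GFP+ and 4386 to 4937 in Tomato+ cells (12 called higher). Of the other marker lists, 6 of 7 leukocyte, 5 of 10 endothelial and 3 of 7 neural crest genes were lower and none was higher, 9 of 11 genes of endoderm and epithelium were higher and 1 was lower, and 12 of 13 genes of SHF mesoderm were higher. The part that these other cells play in the levels below was not tested, and in sorted bulk RNA a larger share of dividing cells cannot be told apart from more RNA per cell.

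The first question was whether the mitotic genes stood at the same level in GFP+ and Tomato+ cells. They were, on balance, higher in GFP+ cells. Of the 51 genes, 29 were higher and 3 lower in GFP+ than in Tomato+ cells at a limma adjusted p under 0.05, and 19 did not pass. Over all 16153 genes tested, 19.7% were higher and 20% lower by the same rule. The median log2 fold change of the 51 genes was 0.30, beside -0.01 for all genes, and 44 of the 51 had a positive value. The 3 libraries of each group did not overlap for 34 genes with GFP+ higher (66.7%, against 27.2% of all genes) and for 4 with GFP+ lower (7.84%, against 27.4%). With replicates 1 and 3 averaged, 17 genes were higher and 1 was lower, against 8.80% and 9.17% of all genes. Those 18 calls also held under every other setting tried. They are Aurka, Aurkb, Birc5, Bub1, Bub3, Mad2l1, Cdk1, Ccnb1, Cenpa, Kif11, Kif20a, Kif20b, Kif23, Spc24, Ska1, Ect2 and Espl1 on the higher side and Ccnb2 on the lower.

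Summed over the 51 genes, the level was 246757, 262830 and 246042 normalized reads in GFP+ cells and 221615, 223332 and 222805 in Tomato+ cells. The sum was 238459 for GFP- and 310566 for Tomato-, where Mki67 alone gave 95504. The mean of log2(normalized reads + 1) over the genes, which gives each gene the same weight, was 11.37, 11.42 and 11.38 in GFP+ cells, 11.01, 10.96 and 11.02 in Tomato+ cells, 11.38 in GFP- cells and 11.13 in Tomato- cells. By this measure the 2 populations of each line lay closer to each other than to the other line. The counts depend in part on scaling. When libraries were scaled to their reads outside mitochondrial genes, the median of all genes moved to -0.14 and that of the mitotic genes to 0.17, which leaves the gap between them at 0.31. Under that scaling 18 genes were higher and 4 lower, Cdca8 joining the lower ones and Bub1b, Ttk, Ccna2, Cdc20, Ube2c, Nuf2, Cenpf, Kif4, Tpx2, Nusap1 and Ncapd2 losing their calls, and 37.3% of all calls were on the higher side, against 49.7% with the deposited size factors. Without GFP+ replicate 3 there were 19 higher genes, and without Tomato+ replicate 1 or 3 there was 1 lower gene, Ccnb2. Over all genes tested, higher calls went from 3186 to 2067 without GFP+ replicate 3. Lower calls went from 3224 to 2132 without Tomato+ replicate 1 and to 2138 without Tomato+ replicate 3.

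**Figure D1:**
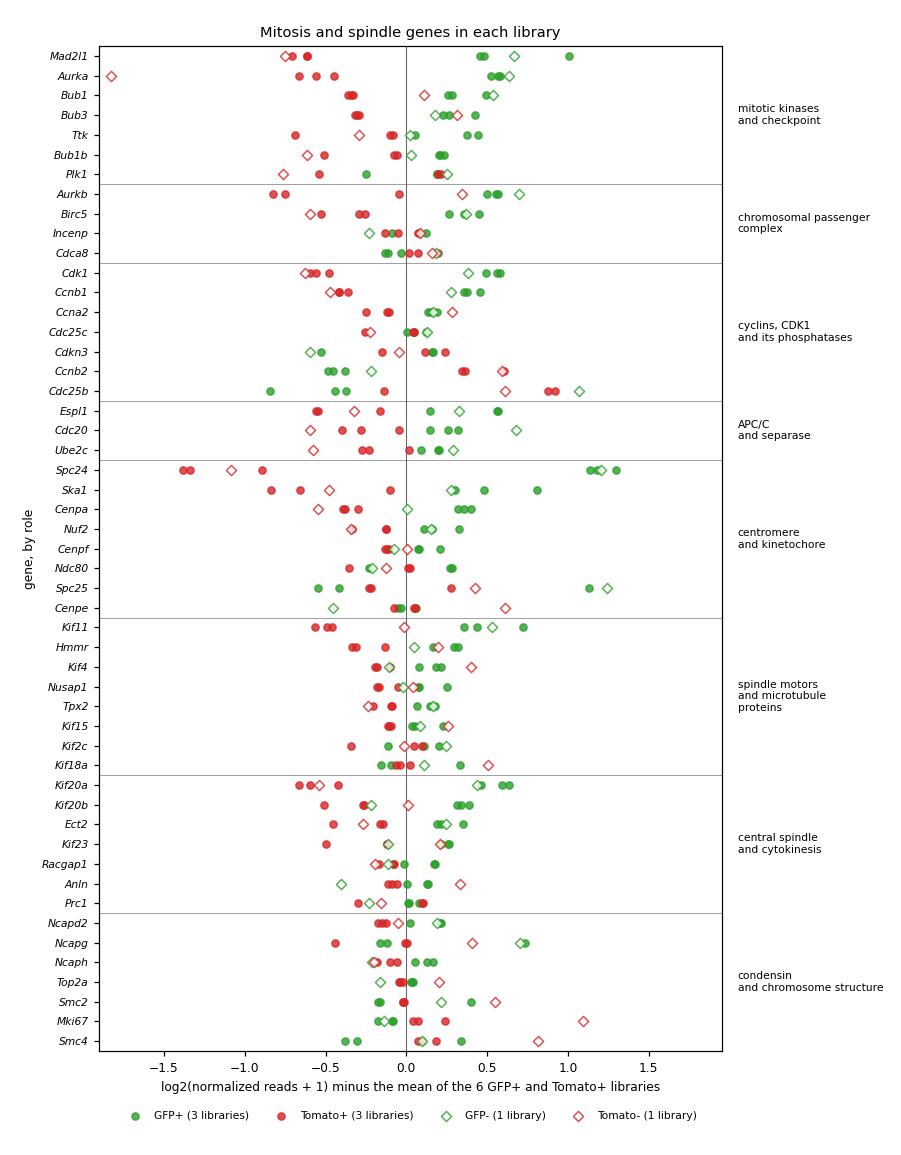
Level of each of the 51 genes in every library, as log2(normalized reads + 1) minus the gene's mean over the 6 GFP+ and Tomato+ libraries. Filled circles are GFP+ (green) and Tomato+ (red) libraries, and open diamonds are the single GFP- (green) and Tomato- (red) libraries. For 34 genes all 3 green circles lie to the right of the red ones, and for 4 all lie to the left.

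The cyclins, CDK1 and its phosphatases did not all go the same way. Of 7 genes, Cdk1, Ccnb1 and Ccna2 were higher in GFP+ cells, Ccnb2 and Cdc25b were lower, and Cdc25c and Cdkn3 did not pass (median log2 fold change 0.12). Among all genes 19.7% were higher and 20% lower, and 2 lower genes of 7 are near that share. With replicates averaged 2 were higher and 1, Ccnb2, was lower, against 8.80% and 9.17% of all genes. Cdk1, the kinase that drives entry into mitosis (chromosome 10, 69335146 to 69352938 of GRCm38), had 1374, 1461 and 1439 normalized reads in GFP+ cells against 663, 647 and 700.5 in Tomato+ cells, 1273 in GFP- cells and 631 in Tomato- cells. Every GFP+ library thus lay above every Tomato+ library, a 2.13-fold difference (2 to the power of the log2 fold change, here 1.09 ± 0.10 SE, limma adjusted p = 0.000149). Ccnb1 encodes cyclin B1, the main partner of CDK1 at mitosis (chromosome 13, 100778650 to 100786570). It had 4084, 4329.5 and 4042 in GFP+ cells and 2364, 2359.9 and 2455 in Tomato+ cells, 3808 in GFP- and 2267 in Tomato- cells, and was 1.73-fold higher in GFP+ cells (adjusted p = 0.000174). Reads of Ccnb1 may be shared with processed pseudogenes up to 99.2% identical to it, so its level is uncertain. The same holds, with less identical copies, for Mad2l1, Bub3, Cdc20, Ube2c, Cenpe, Kif2c and Racgap1.

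Ccnb2 encodes cyclin B2, the other B-type cyclin of dividing somatic cells (chromosome 9, 70407692 to 70421547). It went the other way, with 1077, 1137 and 1057 normalized reads in GFP+ cells and 1875, 2248 and 1902 in Tomato+ cells, and with 1270 in GFP- and 2230.5 in Tomato- cells. All GFP+ libraries lay below all Tomato+ libraries, and Ccnb2 was 1.84-fold lower in GFP+ cells (log2 fold change -0.88 ± 0.10 SE, limma adjusted p = 0.000563, 0.00493 with replicates 1 and 3 averaged). The ratio of Ccnb1 to Ccnb2 within a library does not depend on the size factor. It was 3.79, 3.81 and 3.82 in GFP+ cells against 1.26, 1.05 and 1.29 in Tomato+ cells, and 3 in the GFP- library against 1.02 in the Tomato- library. Ccnb1 was called higher and Ccnb2 lower without overlap, so a gap between GFP+ and Tomato+ cells was given in advance. Cells without reporter had 1 library per line. The ratio of Cdk1 to Cdc25b was 4.79, 6.74 and 4.81 in GFP+ cells against 0.929, 1.83 and 0.951 in Tomato+ cells. It was 1.56 in the GFP- library, within the Tomato+ range, and 1.06 in the Tomato- library. Here too the gap between GFP+ and Tomato+ cells was given in advance, as Cdk1 was called higher and Cdc25b lower without overlap.

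Cdc25b, a phosphatase that removes the inhibitory phosphates of CDK1 (chromosome 2, 131186949 to 131198497), had 287, 217 and 299.5 in GFP+ cells, against 714, 354 and 736 in Tomato+ cells, 817 in GFP- cells and 593 in Tomato- cells. It was 2.15-fold lower in GFP+ cells (adjusted p = 0.0206), with Tomato+ replicate 2 close to the GFP+ libraries. The call ended with replicates 1 and 3 averaged (limma adjusted p = 0.0705) and without GFP+ replicate 2, Tomato+ replicate 1 or Tomato+ replicate 3 (0.0655 to 0.0721). Ccna2, cyclin A2 of S phase and mitosis, was 1.25-fold higher (adjusted p = 0.0102), a call that ended with replicates averaged (limma adjusted p = 0.151) and with scaling to reads outside mitochondrial genes. Cdc25c, a second phosphatase of CDK1, had 993, 1079 and 1024 in GFP+ and 1023, 829.6 and 1019 in Tomato+ cells, 1082 in GFP- and 847 in Tomato- cells. Cdkn3, a phosphatase that acts on cyclin-dependent kinases, was the lowest of the 51 genes and had 146, 90.3 and 146 in GFP+ and 142, 118 and 155 in Tomato+ cells, 86.0 in GFP- and 127 in Tomato- cells. The GFP+ and Tomato+ libraries overlapped for both genes.

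**Figure D2:**
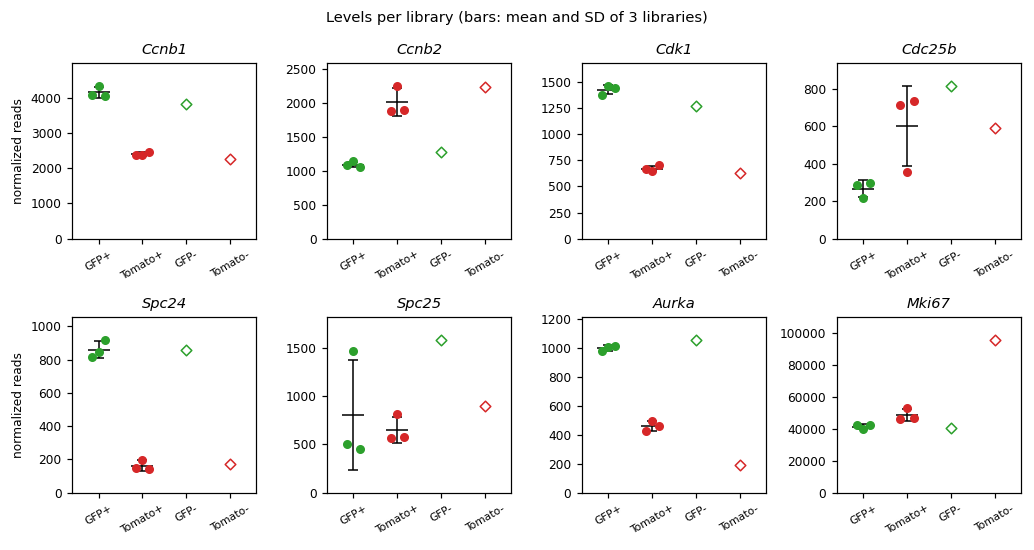
Normalized reads per library of 8 genes, with each axis starting at 0. Points are libraries, and bars are the mean and SD of the 3 GFP+ or 3 Tomato+ libraries. Cdk1, Ccnb1, Spc24 and Aurka are higher in all GFP+ than in all Tomato+ libraries and Ccnb2, Cdc25b and Mki67 lower, while Spc25 overlaps through GFP+ replicate 2.

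The promoters of 4 of these genes, 2 higher and 2 lower in GFP+ cells, are shown for the elements they hold. Each runs from 250 bases before to 50 bases after the annotated start (RefSeq, GRCm38.p6), 5′ to 3′ on the strand of the gene, with CCAAT boxes (CCAAT, or ATTGG on the other strand) and CHR matches (TTTGAA or TTCGAA, or TTCAAA on the other strand) in capitals.
Cdk1, higher in GFP+ (chr10:69352863-69353162, minus strand): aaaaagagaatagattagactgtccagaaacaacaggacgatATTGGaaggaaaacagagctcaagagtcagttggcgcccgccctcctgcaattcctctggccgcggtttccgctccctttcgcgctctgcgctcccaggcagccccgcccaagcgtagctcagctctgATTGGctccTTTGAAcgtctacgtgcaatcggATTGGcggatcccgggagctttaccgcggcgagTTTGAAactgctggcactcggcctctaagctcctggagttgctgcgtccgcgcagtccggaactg
Ccnb1, higher in GFP+ (chr13:100786437-100786736, minus strand): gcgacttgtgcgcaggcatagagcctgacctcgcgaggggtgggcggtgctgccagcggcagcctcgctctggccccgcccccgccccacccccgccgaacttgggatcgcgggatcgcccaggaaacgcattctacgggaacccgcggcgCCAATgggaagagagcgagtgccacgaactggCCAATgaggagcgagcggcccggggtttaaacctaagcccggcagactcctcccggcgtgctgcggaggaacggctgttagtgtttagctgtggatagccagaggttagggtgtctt
Ccnb2, lower in GFP+ (chr9:70421505-70421804, minus strand): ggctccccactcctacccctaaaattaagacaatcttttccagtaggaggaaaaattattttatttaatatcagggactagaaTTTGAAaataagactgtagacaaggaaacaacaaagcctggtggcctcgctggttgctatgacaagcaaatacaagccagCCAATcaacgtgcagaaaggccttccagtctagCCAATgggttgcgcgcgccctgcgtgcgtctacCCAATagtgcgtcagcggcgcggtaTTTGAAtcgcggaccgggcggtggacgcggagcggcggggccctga
Cdc25b, lower in GFP+ (chr2:131186698-131186997, plus strand): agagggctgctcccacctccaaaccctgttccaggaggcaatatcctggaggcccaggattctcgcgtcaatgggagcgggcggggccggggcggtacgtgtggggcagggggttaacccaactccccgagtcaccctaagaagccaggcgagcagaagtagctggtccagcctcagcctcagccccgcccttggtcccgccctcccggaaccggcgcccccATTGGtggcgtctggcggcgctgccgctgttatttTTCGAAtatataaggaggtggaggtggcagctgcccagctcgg
Cdk1 holds 3 CCAAT boxes and 2 CHR matches, Ccnb2 likewise 3 and 2, and Cdc25b 1 and 1. Ccnb1 holds 2 CCAAT boxes and no CHR match in this window. Cdk1, higher in GFP+ cells, and Ccnb2 and Cdc25b, lower in GFP+ cells, thus carried both elements.

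The table of promoters held 45 promoters of 42 of the 51 genes. Ska1, Spc24, Incenp, Aurkb, Cdc25c, Kif20a, Ccna2, Smc4 and Tpx2 had no entry. A CHR match was present in 37 of the 45 (82.2%), against 19.2% of all 32851 promoters. At least 1 CCAAT box was present in 34 (75.6%, against 37.4%), 2 or more in 22 (48.9%, against 11.7%), and both elements together in 32 (71.1%, against 7.52%). The 50 CHR matches had a median distance of -16.5 bases from the start and 68% of them lay within 50 bases of it, against -125 bases and 25.2% of the 7260 matches in all promoters. The 77 CCAAT boxes had a median of -71 bases, against -92 bases in all promoters. Bub3, Ect2 and Prc1 each had 2 overlapping promoters, so sites in the overlap were counted in both, at different distances. These windows were set after the positions had been seen, and a match is a run of letters, not a measured binding site. The most matches were in Top2a, with 4 CHR matches and 6 CCAAT boxes, a gene that did not differ between GFP+ and Tomato+ cells by the test. Mad2l1, Birc5, Nuf2, Nusap1, Kif18a and Ncaph held neither element in this window.

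**Figure D3:**
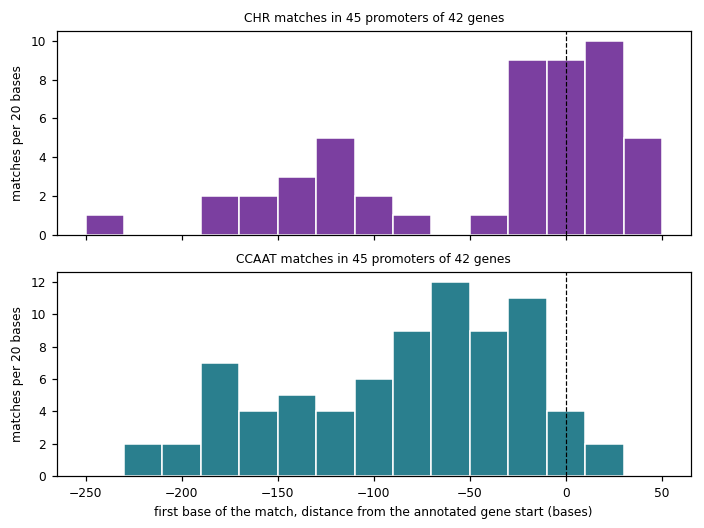
Where CHR matches (upper panel) and CCAAT boxes (lower panel) begin in the 45 promoters, as distance in bases from the annotated start (dashed line), in bins of 20 bases. CHR matches gather around the start, with a median of -16.5 bases, and CCAAT boxes just before it, with a median of -71 bases. Sites in the overlapping promoters of Bub3, Ect2 and Prc1 are counted in each promoter.

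Among the mitotic kinases and checkpoint genes, 6 of 7 were higher in GFP+ cells and none was lower (19.7% and 20% of all genes were). Their median log2 fold change was 0.61. Mad2l1 encodes MAD2, which binds CDC20 and holds the APC/C inactive (chromosome 6, 66535390 to 66547220). It had 4926, 7090.1 and 4845 normalized reads in GFP+ cells against 2308, 2303 and 2163 in Tomato+ cells, 5600.2 in GFP- cells and 2101 in Tomato- cells. Its lowest GFP+ library was above its highest Tomato+ library by a wide gap, and it was 2.45-fold higher (log2 fold change 1.29 ± 0.15 SE, limma adjusted p = 0.000446). Aurka encodes Aurora A, the kinase of the spindle poles (chromosome 2, 172356190 to 172370535), and had 976, 1004 and 1016 in GFP+ cells, 429, 498 and 459.6 in Tomato+ cells, 1054 in GFP- cells and only 190.3 in Tomato- cells. It was 2.16-fold higher in GFP+ than in Tomato+ cells (adjusted p = 0.000291). Bub1 and Bub3, which dock together on unattached kinetochores, were 1.61-fold (adjusted p = 0.000627) and 1.53-fold higher (adjusted p = 0.0013).

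Bub1b, which encodes the checkpoint protein BUBR1, was 1.34-fold higher, and Ttk, the kinase that starts checkpoint signalling, 1.5-fold higher. Both calls depended on the libraries used and on the scaling, while GFP+ stayed higher in each case. Both ended with scaling to reads outside mitochondrial genes. That of Bub1b ended without any 1 of the 3 GFP+ libraries (limma adjusted p = 0.0662 to 0.0791), and that of Ttk without GFP+ replicate 1, GFP+ replicate 3 or Tomato+ replicate 2 (0.0522 to 0.111). With replicates 1 and 3 averaged, 4 of the 6 calls of this class held, those of Mad2l1, Aurka, Bub1 and Bub3. Plk1, the Polo-like kinase of centrosomes and kinetochores, had 938, 691 and 937 in GFP+ cells, 940.2, 565 and 955 in Tomato+ cells, 978 in GFP- and 485 in Tomato- cells. Replicate 2 was the lowest library of both groups, and the groups overlapped (adjusted p = 0.789). Plk1 has a processed pseudogene, Plk-ps1, that is 93.4% identical and was counted separately.

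The chromosomal passenger complex, in which Aurora B is held at the centromere by INCENP, survivin and borealin, did not move as a unit. Aurkb, the kinase subunit, had 2131, 2118 and 2035 in GFP+ cells, 857, 1396 and 813 in Tomato+ cells, 2339 in GFP- cells and 1826 in Tomato- cells, and was 2.11-fold higher in GFP+ than in Tomato+ cells (adjusted p = 0.0039). Tomato+ replicate 2 stood well above the other Tomato+ libraries but still below every GFP+ library. Birc5, which encodes survivin, had 932, 1061 and 994 in GFP+ cells, 649, 537 and 633 in Tomato+ cells, 1001 in GFP- and 513 in Tomato- cells, which made it 1.65-fold higher in GFP+ than in Tomato+ cells (adjusted p = 0.00302). The other two subunits did not pass. Incenp, the scaffold, had 2234, 1984 and 2294 in GFP+ and 2219.8, 1929.6 and 2037 in Tomato+ cells, 1797 in GFP- and 2239.6 in Tomato- cells. Cdca8, which encodes borealin, had 1597, 1621 and 1712 in GFP+ and 1770.2, 2007 and 1843 in Tomato+ cells, 1993 in GFP- and 1957 in Tomato- cells. Its GFP+ libraries all lay below its Tomato+ libraries, but the difference missed the threshold (log2 fold change -0.19 ± 0.09 SE, limma adjusted p = 0.133).

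All 3 genes of the APC/C and separase class were higher in GFP+ cells (19.7% of all genes were). With replicates averaged 1 of the 3 calls held (8.80% of all genes were higher). Espl1, which encodes separase, the protease that cuts cohesin at anaphase, had 1664, 1249.9 and 1673 in GFP+ cells, 773, 1007 and 766 in Tomato+ cells, 1416 in GFP- and 900.1 in Tomato- cells. The groups did not overlap, and Espl1 was higher by 1.80-fold in GFP+ libraries (limma adjusted p = 0.00488, 0.0443 with replicates averaged). Cdc20, the activator of the APC/C, had 796, 706 and 761 in GFP+ cells, 484, 617 and 525 in Tomato+ cells, 1022 in GFP- and 421 in Tomato- cells. It was 1.40-fold higher in GFP+ than in Tomato+ cells (adjusted p = 0.0239). Ube2c, the ubiquitin-conjugating enzyme of the APC/C, was 1.25-fold higher (adjusted p = 0.034). The calls of Cdc20 and Ube2c each ended without GFP+ replicate 1 or 3 or Tomato+ replicate 1 or 3 (limma adjusted p = 0.086 to 0.102 for Cdc20 and 0.116 to 0.13 for Ube2c). Both also ended with the replicate number as a block and with scaling to reads outside mitochondrial genes. Part of the exons of Ube2c (22.8%) overlaps Tnnc2, and the library kit kept no strand, so the count of Ube2c is uncertain there. Smaller parts of the exons overlap another gene in Kif4 (15.1%), Ncapg (13.4%), Cdc25c (12.7%), Ccna2 (12.5%) and Prc1 (11.1%).

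The kinetochore genes held the largest difference of the set and also subunits of the same complex that did not pass. Of 8 genes, 5 were higher in GFP+ cells and none was lower (19.7% and 20% of all genes were). Spc24, Spc25, Ndc80 and Nuf2 together form the NDC80 complex, the main link between kinetochore and microtubule. Spc24 (chromosome 9, 21755442 to 21760303, protein-coding) had 817, 843 and 917 normalized reads in GFP+ cells against 147, 199.6 and 142 in Tomato+ cells, 857 in GFP- cells and 175 in Tomato- cells. Its mean was 859 ± 52.0 in GFP+ libraries against 163 ± 31.9 in Tomato+ libraries (SD, n = 3 each), a 5.31-fold difference (log2 fold change 2.41 ± 0.18 SE, limma adjusted p = 6.02e-05). The libraries without reporter stood at the level of the positive cells of their own line.

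The other 3 subunits differed less, and only Nuf2 passed. Spc25, which pairs with SPC24, had 499, 1461 and 456 in GFP+ cells, 569, 808 and 573 in Tomato+ cells, 1578 in GFP- and 896 in Tomato- cells. GFP+ replicate 2 was far above GFP+ replicates 1 and 3, which lay below all Tomato+ libraries (adjusted p = 0.855). The ratio of Spc24 to Spc25 was 1.64, 0.577 and 2.01 in GFP+ libraries against 0.258, 0.247 and 0.248 in Tomato+ libraries, 0.544 in the GFP- and 0.196 in the Tomato- library. Spc24 held the largest difference of the set, so a gap in this ratio was largely given in advance. Ndc80, the subunit that binds the microtubule, had 2193, 1537 and 2175 in GFP+ cells, 1835, 1411 and 1814 in Tomato+ cells, 1553 in GFP- and 1651 in Tomato- cells, with overlap. Nuf2, its partner, was 1.31-fold higher in GFP+ cells (adjusted p = 0.0204), a call lost without GFP+ replicate 3 or Tomato+ replicate 3 (limma adjusted p = 0.0501 to 0.0606). The call of Nuf2 also ended with replicates 1 and 3 averaged (limma adjusted p = 0.134). It ended as well with the replicate number as a block and with scaling to reads outside mitochondrial genes.

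Ska1, a subunit of the complex that helps kinetochores hold on to shortening microtubules, had 609, 866 and 692 in GFP+ cells, 313, 462 and 277 in Tomato+ cells, 598 in GFP- and 355 in Tomato- cells. It was 2.09-fold higher in GFP+ cells (adjusted p = 0.00746), without overlap. Cenpa, the histone H3 variant that marks the centromere, was 1.64-fold higher (adjusted p = 0.00032), and Cenpf, a large protein of the outer kinetochore, 1.18-fold (adjusted p = 0.0216). The call of Cenpf ended without GFP+ replicate 1 or 3 or Tomato+ replicate 1 or 3 (limma adjusted p = 0.057 to 0.0828). Cenpe, the kinetochore motor that moves chromosomes to the spindle equator, had 13834, 14762 and 13683 in GFP+ cells, 14690, 13458 and 14617 in Tomato+ cells, 10338 in GFP- cells and 21600 in Tomato- cells. The GFP+ and Tomato+ libraries overlapped and their fold was near 1 (log2 fold change -0.02 ± 0.07 SE), while the Tomato- library stood above all others.

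**Figure D4:**
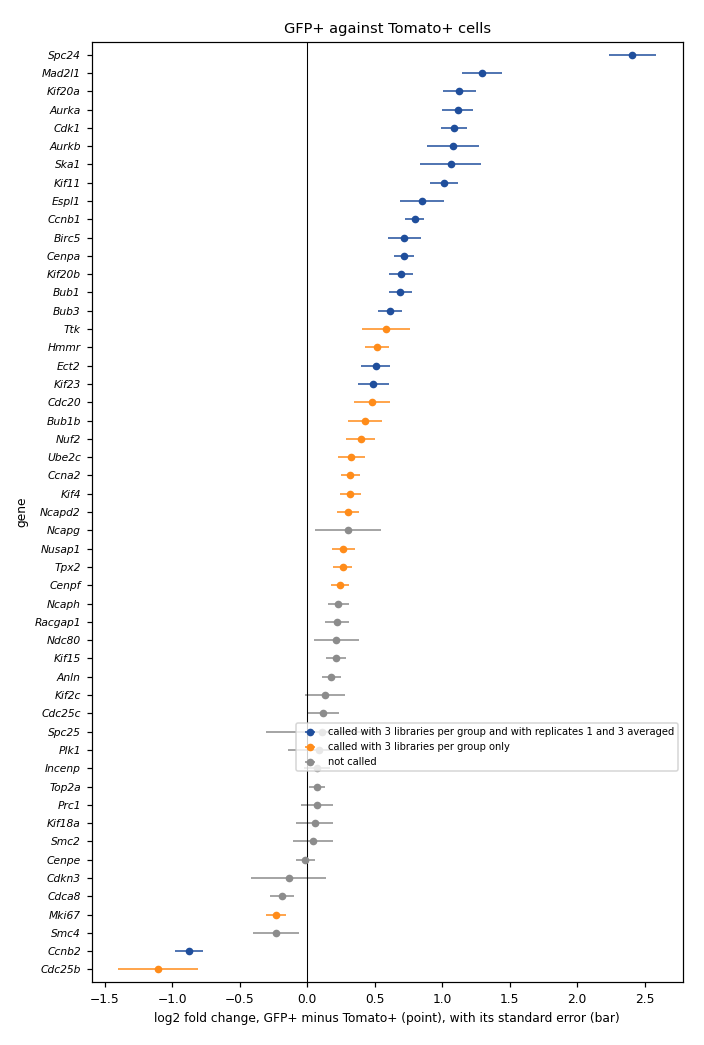
Log2 fold change of GFP+ over Tomato+ cells for the 51 genes (points), with its standard error from limma (bars). Blue genes were called both with 3 libraries per group and with replicates 1 and 3 averaged (18 genes), orange genes with 3 libraries only (14 genes), and grey genes were not called (19 genes). Spc24 stands apart at 2.41, and Ccnb2 is the blue gene below 0.

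Of the 8 spindle motors and microtubule proteins, 5 were higher in GFP+ cells and none was lower (19.7% and 20% of all genes were). With replicates averaged only Kif11 kept its call (8.80% of all genes were higher). Kif11 encodes EG5, the motor that pushes the spindle poles apart (chromosome 19, 37376403 to 37421859). It had 7740, 9402 and 7314 normalized reads in GFP+ cells against 4141, 3863 and 4061 in Tomato+ cells, 8236 in GFP- and 5649.5 in Tomato- cells, a 2.02-fold difference between GFP+ and Tomato+ cells (limma adjusted p = 0.000274). Hmmr, a microtubule-binding protein of the spindle poles, had 4621, 4149.7 and 4539 in GFP+ cells, 2938, 3388 and 2988 in Tomato+ cells, 3827 in GFP- and 4244 in Tomato- cells, which made it 1.43-fold higher in GFP+ than in Tomato+ cells (adjusted p = 0.00299, 0.0733 with replicates averaged). Kif4, a chromosome-bound motor, Nusap1, which bundles spindle microtubules, and Tpx2, the activator of Aurora A, were 1.25-fold, 1.20-fold and 1.20-fold higher. All 3 of these calls ended without GFP+ replicate 1, GFP+ replicate 3 or Tomato+ replicate 1, and those of Nusap1 and Tpx2 also without Tomato+ replicate 3 (limma adjusted p = 0.0619 to 0.073 for Kif4, 0.0865 to 0.144 for Nusap1 and 0.0639 to 0.0994 for Tpx2).

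The remaining 3 motors did not pass. Kif15, which can share the work of EG5, had 7833, 8940 and 7916 in GFP+ and 7084, 7071 and 7165 in Tomato+ cells, 8092 in GFP- and 9135 in Tomato- cells, without overlap but short of the threshold (adjusted p = 0.0567). Kif2c, a depolymerase of centromeric microtubules, had 1200.2, 963 and 1124 in GFP+ and 1118, 823 and 1078 in Tomato+ cells, 1237 in GFP- and 1031 in Tomato- cells. Kif18a, a motor that damps chromosome oscillations, had 1583, 2131 and 1518 in GFP+ and 1617, 1720.1 and 1646 in Tomato+ cells, 1822 in GFP- and 2397 in Tomato- cells. The groups overlapped for Kif2c and Kif18a.

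In the central spindle and cytokinesis class 4 of 7 genes were higher in GFP+ cells and none was lower (19.7% and 20% of all genes were). All 4 calls held with replicates averaged (8.80% of all genes were higher). Kif20a, a motor that carries the passenger complex to the central spindle, had 1030.5, 913 and 1002 in GFP+ cells against 419, 494 and 438 in Tomato+ cells, 899.9 in GFP- and 456 in Tomato- cells. It was higher by 2.18-fold in GFP+ libraries (limma adjusted p = 0.000383). Of its exon bases 29.3% overlap Cdc23, so its count is uncertain there. Kif20b, a related motor of late cytokinesis, had 7454, 7105 and 7219 in GFP+ cells, 4765, 4008 and 4734 in Tomato+ cells, 4900 in GFP- and 5757 in Tomato- cells. It was 1.62-fold higher in GFP+ than in Tomato+ cells (adjusted p = 0.000721). Kif23, the motor subunit of centralspindlin, was 1.40-fold higher (adjusted p = 0.011) and Ect2, which activates RhoA at the equator, 1.42-fold (adjusted p = 0.00806).

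The other 3 genes of the class did not pass. Racgap1, the other centralspindlin subunit, had 2385, 2087 and 2372 in GFP+ and 1996, 1880 and 1998 in Tomato+ cells, 1948 in GFP- and 1847 in Tomato- cells (adjusted p = 0.0877). Anln, the actin-binding protein anillin of the contractile ring, had 4475, 4107 and 4480.5 in GFP+ and 3921, 3776 and 3839.7 in Tomato+ cells, 3092 in GFP- and 5149.7 in Tomato- cells (adjusted p = 0.0866). Both genes had every GFP+ library above every Tomato+ library by a small margin. Prc1, which cross-links the microtubules of the central spindle, had 2307, 2299.8 and 2408 in GFP+ and 2446, 1850.3 and 2437 in Tomato+ cells, 1946 in GFP- and 2042 in Tomato- cells, with overlap.

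The condensin and chromosome structure class held the 3 most abundant genes of the set and had the smallest median difference of the 8 classes. Per kilobase of exon, Mki67 ranked first of the 51 genes with 4109.6 normalized reads in GFP+ and 4833 in Tomato+ cells, Top2a had 3268 per kilobase in GFP+ cells against 3111 in Tomato+ cells, and Smc4 had 2726 in GFP+ cells against 3125 in Tomato+ cells. Cdkn3, the lowest, had 53.9 in GFP+ and 58.2 in Tomato+ cells. Of the 7 genes of this class 1 was higher, 1 was lower and 5 did not pass (median log2 fold change 0.07). By the same rule 19.7% of all genes were higher and 20% lower. Mki67 encodes Ki-67, the coat protein of mitotic chromosomes (chromosome 7, 135689784 to 135716361). It had 42207, 39691 and 42141 normalized reads in GFP+ cells against 46107, 52767 and 46988 in Tomato+ cells, 40767 in GFP- cells and 95504 in Tomato- cells. It was 1.17-fold lower in GFP+ cells (limma adjusted p = 0.0391), a call that ended without GFP+ replicate 1 or 3 or any 1 of the Tomato+ libraries (limma adjusted p = 0.0578 to 0.0936), with no filter on low values, with the replicate block and with replicates averaged (limma adjusted p = 0.215).

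Ncapd2, a subunit of condensin I, had 3275, 2876 and 3286 in GFP+ cells, 2553, 2509 and 2587 in Tomato+ cells, 3226 in GFP- and 2732 in Tomato- cells, which made it 1.23-fold higher in GFP+ than in Tomato+ cells (adjusted p = 0.0242). Its call ended without GFP+ replicate 1 or 3 or Tomato+ replicate 1 or 3 (limma adjusted p = 0.0765 to 0.109). Top2a, the topoisomerase that untangles sister chromatids, had 29327, 29585 and 29465 in GFP+ cells, 27835, 28274 and 28005 in Tomato+ cells, 25622 in GFP- and 33035 in Tomato- cells. Its libraries did not overlap, yet the difference was 0.07 ± 0.06 SE on the log2 scale (adjusted p = 0.345). In 3 of the other condensin genes GFP+ replicate 2 stood apart. Smc2 and Smc4 encode the core ATPases of condensin, and Smc2 had 7179.7, 10632 and 7110 in GFP+ and 7917, 7918 and 7967 in Tomato+ cells, 9352 in GFP- and 11751 in Tomato- cells. Smc4 had 12167, 18930 and 11515 in GFP+ and 16033, 17014 and 15790 in Tomato+ cells, 16051 in GFP- and 26376 in Tomato- cells. Ncapg, another subunit, had 1880.3, 3402 and 1829 in GFP+ and 2034, 1509 and 2049.7 in Tomato+ cells, 3338 in GFP- and 2718 in Tomato- cells. In each of these 3 genes GFP+ replicate 2 lay above all Tomato+ libraries, while GFP+ replicates 1 and 3 lay below all of them for Smc2 and Smc4 and below Tomato+ replicates 1 and 3 for Ncapg. Without GFP+ replicate 2, Smc2 and Smc4 were called lower in GFP+ cells, Smc2 with a log2 fold change of -0.15. That setting leaves GFP+ replicates 1 and 3, which were nearly alike, so its scatter may be too small. With replicates 1 and 3 averaged neither gene was called (limma adjusted p = 0.644 for Smc2 and 0.654 for Smc4). Ncaph, the link between the condensin ATPases, had 2837, 2696 and 2910.3 in GFP+ and 2493, 2288 and 2420.1 in Tomato+ cells, 2242 in GFP- and 2258 in Tomato- cells, without overlap and just short of the threshold (adjusted p = 0.0513).

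The comparison with cells that lacked the reporter asked whether the mitotic genes set the sorted cells apart from the rest of the dissected region. Since each line had 1 negative library, a gene was first counted, with no test, when each of the 3 positive libraries was 1.5-fold or more away from the negative library on the same side. None of the 51 genes was above GFP- in GFP+ cells by this rule (8.85% of all genes were) and 1, Cdc25b, was below (8.09% of all genes). The ratio of mean GFP+ to GFP- was lowest for Cdc25b, 3.04-fold lower in GFP+ cells, and highest for Kif20b, with a log2 ratio of 0.57. Without GFP+ replicate 2 the counts were 1 above and 3 below. Of the 51 genes, 22 had all 3 GFP+ libraries above the GFP- library (33.1% of all genes did) and 12 had all 3 below it (33.5%). A limma fit with 1 spread shared by all 8 libraries was added after seeing the data. It assumes that the lone library varies like the others. The fit called 3 genes higher in GFP+ than in GFP- cells, Cenpe, Kif20b and Anln (4.15% of all genes), and 0 lower (2.82%).

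In the Mef2c-Cre line 1 gene, Aurka, was above Tomato- in Tomato+ cells (15.5% of all genes were) and 3 genes, Bub3, Mki67 and Smc4, were below (12.1% of all genes). Aurka was 2.42-fold higher in Tomato+ than in Tomato- cells, and Mki67 was 1.96-fold lower. Without Tomato+ replicate 2 the counts were 2 above and 5 below. All 3 Tomato+ libraries were above the Tomato- library for 14 of the 51 genes (37.4% of all genes) and below it for 23 (36.9%). The limma fit with shared spread called Aurka higher (9.65% of all genes) and 8 genes lower in Tomato+ than in Tomato- cells, Bub1, Bub3, Ccna2, Cenpe, Kif4, Mki67, Anln and Hmmr (6.07%). The Tomato- library had the highest share of mitochondrial reads, 51.4% against 32.7% to 43.7% in the other 7 libraries, and none of the 51 genes was below it by a 2-fold margin.

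The libraries without reporter were also set against each other. In GFP- cells 14 of the 51 genes were at least 1.5-fold above Tomato- cells (24.5% of all genes were) and 5 were below (26.3%). The 14 were Aurka, Plk1, Bub1b, Mad2l1, Cdk1, Ccnb1, Cdc20, Kif20a, Birc5, Spc24, Spc25, Ska1, Ube2c and Espl1, and the 5 were Ccnb2, Cenpe, Mki67, Anln and Smc4. Of the 29 genes called higher in GFP+ than in Tomato+ cells, 21 (72.4%) were also higher in GFP- than in Tomato- cells, against 77.8% of all 3186 genes so called. Across the 51 genes the log2 ratio of GFP- to Tomato- had a Pearson correlation of 0.675 and a Spearman correlation of 0.658 with the log2 fold change of GFP+ over Tomato+, against 0.418 and 0.415 across all genes. The points share their libraries and the genes are not independent, so this is a description. The 2 log2 values had the same sign in 62.7% of the 51 genes and in 66% of all genes. The level of Spc24, Cdk1, Ccnb1, Ccnb2 and Mad2l1 in cells without reporter lay near that of the reporter-positive cells of the same line. Other genes did not follow this. Aurka was 2.42-fold higher and Mki67 1.96-fold lower in Tomato+ than in Tomato- cells, and Cdc25b was 3.04-fold lower in GFP+ than in GFP- cells.

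**Figure D5:**
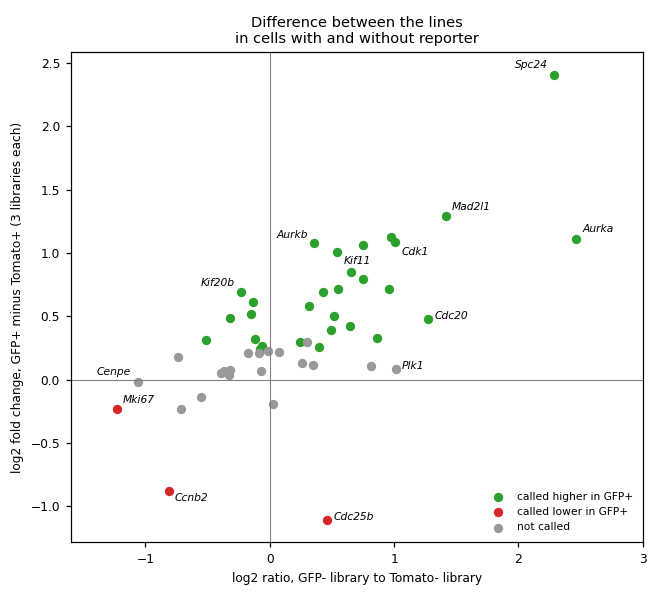
Log2 fold change of GFP+ over Tomato+ cells (3 libraries each, vertical axis) against the log2 ratio of the single GFP- to the single Tomato- library (horizontal axis) for the 51 genes. Spc24, Aurka and Mad2l1 lie at the upper right, Ccnb2 and Mki67 at the lower left, and Cdc25b is lower in GFP+ than in Tomato+ cells but higher in GFP- than in Tomato- cells.

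The rest of the pathway was counted in the same way. Beside these counts, 19.7% of all genes were higher and 20% lower, and 8.80% and 9.17% with replicates averaged. Of 102 other mitosis genes, 37 were higher and 5 lower in GFP+ cells (median log2 fold change 0.27, with 24 and 3 calls when replicates were averaged). Ube2s, which extends ubiquitin chains on APC/C substrates, had 559, 606 and 571 normalized reads in GFP+ and 195, 183 and 179.8 in Tomato+ cells. Pmf1, a subunit of the kinetochore complex MIS12, had 889, 763 and 984 in GFP+ and 299, 290.2 and 296 in Tomato+ cells, and Fam83d, a spindle protein, 430.0, 434 and 407 in GFP+ and 152, 177 and 162 in Tomato+ cells. On the lower side were Pttg1, which encodes securin, the inhibitor of separase, with 284, 437 and 246 in GFP+ and 569, 1073 and 683 in Tomato+ cells, Anapc13, a small APC/C subunit, with 279, 162 and 334 in GFP+ and 544, 476 and 499.8 in Tomato+ cells, and Kifc1, a minus-end motor, with 157, 113 and 210.3 in GFP+ and 237, 396 and 273 in Tomato+ cells. Separase was thus higher and its inhibitor lower in GFP+ cells, each without overlap. The count of lower genes was 3 without GFP+ replicate 1, Tomato+ replicate 1 or Tomato+ replicate 3.

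Among 15 regulators that act through CHR and CCAAT elements, 6 were higher and 2 lower (median log2 fold change 0.24), and 1 and 1 with replicates averaged. Over all genes, 19.7% were higher and 20% lower, and 8.80% and 9.17% with replicates averaged. Lin52, a MuvB subunit, had 324, 325 and 353 in GFP+ and 165, 157 and 163 in Tomato+ cells, and Mybl2, which encodes B-MYB, 569.7, 558 and 542 in GFP+ and 439, 317 and 398 in Tomato+ cells. Tfdp1, the partner of E2F proteins, had 6288, 5777 and 6367 in GFP+ and 4102, 4271 and 4034 in Tomato+ cells. The 2 lower genes encode the repressors of this programme, Rbl2 (p130) with 276, 353 and 275 in GFP+ and 482, 839.5 and 539 in Tomato+ cells and Rbl1 (p107) with 1216, 1244 and 1192 in GFP+ and 1669, 1576 and 1658 in Tomato+ cells. Without Tomato+ replicate 3 there were 3 higher regulators. With replicates averaged Tfdp1 and Rbl2 kept their calls. Lin52, Mybl2 and Rbl1 lost theirs (limma adjusted p = 0.0725, 0.178 and 0.192).

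Of 43 genes of S phase, when DNA is copied, 24 were higher and 2 lower (median log2 fold change 0.47), and 17 and 0 with replicates averaged. The shares over all genes were 19.7% and 20%, and 8.80% and 9.17% with replicates averaged. Ccne1, cyclin E1 of the entry into S phase, was 2.40-fold higher (limma adjusted p = 0.00296), Gins4, of the replicative helicase, 2.34-fold (adjusted p = 0.000368) and Rrm2, which makes deoxyribonucleotides, 2.29-fold (adjusted p = 2.95e-05). The lower genes, Pola2 and E2f1, were 1.36-fold and 1.30-fold lower, and neither call held with replicates averaged, with the replicate number as a block, or without GFP+ replicate 3 or either of Tomato+ replicates 1 and 3. The block left 0 lower genes, and 1 was left without GFP+ replicate 1. Of 10 inhibitors of the cell cycle none was higher and 4 were lower (median log2 fold change -0.28), and 3 with replicates averaged. Of all genes 19.7% were higher and 20% lower, and 9.17% were lower with replicates averaged. Cdkn1c, the CDK inhibitor p57, had 2502, 1896 and 2631 in GFP+ and 5793, 6345 and 5885 in Tomato+ cells, 2.59-fold lower in GFP+ cells. Gadd45g, a growth-arrest gene, was 3.59-fold and Btg2, an antiproliferative gene, 2.14-fold lower. No inhibitor was higher by DESeq2 or edgeR either, and 0 of the 10 had an unadjusted limma p under 0.05 in that direction.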

How the data were processed

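Per the labels, cells were dissected, pooled, digested and sorted, and cDNA was amplified from 2 ng of total RNA with a single primer isothermal kit that keeps no strand. The submitters' processing notes name bcl2fastq 2.17.1.14, STAR 2.5.2, HTSeq, R 3.3.4, DESeq2 and the build mm10. The study's methods name an Ensembl gene build for a quantification with RSEM, which the notes do not list. Which annotation the HTSeq counts used was not given in the sources used here. The deposited signal values are reads per gene that the authors divided by DESeq2 size factors, in 1 table of 16302 genes and 8 libraries. Whole reads could be recovered for 100% of the values (within 0.01), and their totals give the depths above.

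Genes averaging 10 or more over the 6 reporter-positive libraries (16153) were tested with limma 3.58.1 (R 4.3.3, trended prior) on log2(normalized reads + 1), GFP+ minus Tomato+, with Benjamini-Hochberg adjustment over all of them and a threshold of 0.05. Fold changes on this scale understate those of low genes. edgeR 4.0.16 and DESeq2 1.42.0 on recovered reads, TMM scaling, scaling to reads outside mitochondrial genes, pseudocounts of 0.5 and 10, no filter or a minimum of 50, all 8 libraries in the fit, a replicate block, averaged replicates and leaving out each library were tried. Against the single GFP- and Tomato- libraries, a gene stood apart without a test when all positive libraries were at least 1.5-fold to one side and the higher side reached 50, and a limma fit with 1 spread shared by all 8 libraries was added.

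Coordinates and exon lengths are from GENCODE M21 (GRCm38), in which 96.7% of the symbols matched 1 gene, and promoters are from RefSeq (GRCm38.p6). The genes and lists were chosen with earlier results of these data known. Values in every library are given for the 2 called, non-overlapping genes with the largest change in each class, all lower genes, all genes not called and the extreme ratios to the negative libraries, and values or folds for up to 3 genes in each direction of the other lists.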

Additional observations from a re-analysis of the deposited data

Results flagged for a closer look

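For 8 of the 51 genes (15.7%) the ratio of GFP+ to GFP- differed from the ratio of Tomato+ to Tomato- by a limma interaction term fitted over all 8 libraries, against 1726 of all 16153 genes tested (10.7%). The lone GFP- and Tomato- libraries are assumed in this fit to vary like the others, and the fit was chosen after the data had been seen. Of these 8, only Aurka had a lower ratio in the Hoxb1GFP line. Its log2 ratio was -0.08 for GFP+ over GFP- and 1.27 for Tomato+ over Tomato-, a difference of -1.35 (adjusted p = 0.015). The other 7 had the higher ratio in the Hoxb1GFP line, with a difference of 1.05 for Cenpe (adjusted p = 0.00655), 0.996 for Mki67 (0.00925), 0.926 for Kif20b (0.0185), 0.914 for Anln (0.0114), 0.828 for Kif4 (0.0179), 0.749 for Bub3 (0.0351) and 0.438 for Top2a (0.0463). The Tomato- library was above all 3 Tomato+ libraries for each of these 7 genes. It also held the largest share of mitochondrial reads, 51.4%, and the part of that in these values was not tested.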

How the results depend on the processing

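The libraries held 22668185 to 41597870 reads, and the limits are the 2 or 3 values per group, the near-alike replicates 1 and 3, and 1 library for each negative population. Leaving out 1 library gave 19 to 32 higher and 1 to 4 lower mitotic genes and a median log2 fold change of 0.28 to 0.33, beside 29, 3 and 0.30. Over all genes the same settings gave 2067 to 4025 higher and 2132 to 3876 lower calls, beside 3186 and 3224. Other mitosis genes then gave 25 to 46 higher and 3 to 7 lower calls, the regulators 3 to 6 and 2 to 3, and S phase genes 0 to 3 lower calls. With replicates 1 and 3 averaged, 17 mitotic genes were higher and 1 lower, as were 24 and 3 other mitosis genes, 1 and 1 regulators, and 0 S phase genes lower. Scaling to reads outside mitochondrial genes gave 18 higher genes and a median of 0.167. The log2 fold change of Smc2 was 0.04 and ranged over -0.15 to 0.14, and its sign turned without GFP+ replicate 2.

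Same-numbered GFP+ and Tomato+ libraries had correlations of their deviations of 0.0228, 0.015 and 0.0111, so gene by gene no pairing was seen. The share of mitochondrial reads did follow the number. It was 42.4% in GFP+ and 43.7% in Tomato+ replicate 2, against 32.8% to 34.5% in replicates 1 and 3. Whether libraries of the same number were processed together was not tested. With the replicate number as a block there were 27 higher and 2 lower mitotic genes and 0 lower S phase genes. Of the 27 higher genes, 26 were also higher without the block. Nuf2, Cdc20 and Ube2c lost their higher calls and Mki67 its lower one. Over all genes the block gave 2982 higher and 3009 lower. DESeq2 gave 31 and 3, edgeR 30 and 3, TMM 30 and 3 and no filter 30 and 2. For all genes these gave 3525 and 3642, 3091 and 3170, 3176 and 3222, and 3158 and 3198, in that order.

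Against the GFP- library, leaving out 1 library gave 0 to 1 genes above and 1 to 3 below, and limma with 1 shared spread (chosen after seeing the data) 3 above and 0 below. Against the Tomato- library, leaving out 1 gave 1 to 2 above and 3 to 5 below. Below it were 0 genes at a 2-fold margin, 1 with scaling to reads outside mitochondrial genes and 8 with limma. The cause of these shifts was not tested.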
